A study of Mus musculus with 8 samples.

Results

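The loci described here belong to 39 genes of the actin cytoskeleton, many of them known targets of serum response factor (SRF), out of 21887 protein-coding genes of the RefSeq table (GRCm38.p6, the same coordinates as mm10). The genes were given as a list of names. A locus is the gene interval with 50 kb on either side, and all 39 genes were found in the table. The mark measured was H3K27ac, the acetylated form of histone H3 lysine 27 found at active promoters and enhancers, and the assay was ChIP-seq. The cells were E14tg2a, a mouse embryonic stem cell line (129SV background). All cells stably carried cRAF-ErT2, a fusion of RAF with the hormone-binding part of the oestrogen receptor, which activates the ERK pathway once 4-hydroxytamoxifen (4OHT) is added. Their medium held serum, LIF and the GSK3 inhibitor Chir99021 (2 uM), and they were moved 24 h before treatment to serum with LIF and 250 nM PD173074, an FGF receptor inhibitor. The untreated group and the group given 250 nM 4OHT for 2 h each consist of clone a and clone b, so 4 peak lists were compared. The labels name no vehicle control and no cells without the cassette, and 2 clones a group is the whole replication.

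SRF is a transcription factor that binds the CArG box, an A- and T-rich stretch framed by CC and GG. It works with ternary complex factors such as ELK1, which ERK phosphorylates, and with the myocardin-related factors MRTFA and MRTFB, which are held back by monomeric actin and freed when actin polymerises. Genes for actin, actin-binding proteins and focal adhesions are among its best known targets, so the pathway both reads and rebuilds the cytoskeleton.

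The 4 lists held 59170 to 63276 peaks covering 50.4 to 53.1 Mb. They give no read counts, so depth is unknown, and a region absent from a list may lie just under the calling threshold. The mark was present at the starts of stem cell genes: 9 of 10 markers with a listed start (Pou5f1, Nanog and Sox2 among them) had peaks within 2 kb of it in all 4 libraries, with 33.8 to 34.5 kb covered in sum. Esrrb lacked one in untreated clone a. Of 7 fibroblast markers 6 had none in any library, Col1a2 and Col3a1 among them. Twist1 had none in untreated cells and 1.66 and 2.12 kb in treated clones a and b. Of 5 smooth muscle markers 3 had none, and the sum over the list was 0.484 and 0.515 kb untreated and 1.16 and 1.21 kb treated; the part of such cells in the results was not tested. A change in a few cells and a smaller change in all of them cannot be told apart in such bulk data.

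Promoter sequences show where SRF could be read into these genes. RefSeq promoters (GRCm38.p6, 250 bases before to 50 after a start) were listed for 35 of the 39 genes, with 41 starts; Actb, Tagln, Pxn and Diaph1 had no entry. A CArG box was taken as CCWWWWWWGG, where W is A or T, with no mismatch allowed. Both strands were searched, which are equivalent for this motif. It stood in 8 of the 41 promoters (19.5%), those of 7 genes, and in 1.52% of 21263 promoters of all protein-coding genes. The list was drawn up with SRF targets in mind, so the higher share is a property of the choice. Each box is printed 5′ to 3′ on the gene's strand with 10 bases on either side, and capitals mark the box.

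Actg1, chr11:120348566-120348595, minus strand: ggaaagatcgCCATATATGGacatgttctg
Srf, chr17:46556225-46556254, minus strand: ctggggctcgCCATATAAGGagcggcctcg
Srf, chr17:46556205-46556234, minus strand: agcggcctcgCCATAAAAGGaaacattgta
Cnn2, chr10:79988534-79988563, plus strand: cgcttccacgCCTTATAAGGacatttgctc
Myl9, chr2:156775293-156775322, plus strand: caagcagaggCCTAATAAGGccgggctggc
Lima1, chr15:99820177-99820206, minus strand: ctcactttgtCCTTATAAGGctatcctgtt
Vcl, chr14:20929161-20929190, plus strand: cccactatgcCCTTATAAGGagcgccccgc
Fhl2, chr1:43196838-43196867, minus strand: catttagagaCCAAAAAAGGcttgcaggag
Fhl2, chr1:43163973-43164002, minus strand: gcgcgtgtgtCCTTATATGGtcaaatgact

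The boxes began 31 bases (internal Fhl2 start) to 227 bases (Vcl) upstream of their starts. Cnn2, Lima1 and Vcl carry the same core. Srf itself has a pair of boxes 82 and 62 bases before its start, and 122 bases before it the letters CCGGAA, the core of many ETS factor sites. CCGGAA, searched on both strands, was in 6 of the 41 promoters (14.6%) and in 18.7% of all. TGANTCA, the core of AP-1 sites, was in 3 of 41 (7.32%; Actn4, Zyx and Ezr) against 6.99% of all. The Srf promoter, with both CArG boxes and CCGGAA in capitals, is shown because it holds both the SRF and the ETS letters.

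Srf promoter, chr17:46556113-46556412, minus strand: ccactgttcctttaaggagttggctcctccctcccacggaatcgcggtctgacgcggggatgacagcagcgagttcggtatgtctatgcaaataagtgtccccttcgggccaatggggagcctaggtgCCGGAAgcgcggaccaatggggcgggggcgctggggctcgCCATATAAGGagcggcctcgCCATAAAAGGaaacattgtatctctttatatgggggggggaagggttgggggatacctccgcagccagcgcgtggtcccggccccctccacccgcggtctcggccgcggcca

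The promoters with a CArG box were not alike in acetylation. Peaks lay within 2 kb of the starts of Actg1, Srf, Cnn2 and Vcl in all 4 libraries. Myl9 and Lima1 had none there in any library. The only start listed for Lima1 is internal, so the end of that gene at 99875477 was not looked at as a start. At Fhl2 a peak of 0.299 kb was called in untreated clone b and of 0.442 kb in treated clone b, and none in either clone a. Nor did their loci move together after 4OHT: of the 7, the log2 change was above 0 at 3 (Srf, Vcl and Fhl2) and below 0 at 4 (Actg1, Cnn2, Myl9 and Lima1), with a median of -0.25. The 27 tested loci whose listed promoters hold no exact CArG box had a median of 0.17. Looser matches were not searched for. Gsn and Zyx, tested only because of their treated libraries, are among the 27.

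The main comparison asked how the peak-covered length of each locus differed after 4OHT. It rose at Fhl2, which encodes a LIM-domain protein that binds SRF, and 0 loci fell. Gsn, the gene for the filament-severing protein gelsolin, also passed the threshold, but it had to differ to be tested at all, since its untreated libraries alone lie under the length filter. The other 36 loci passed in neither direction. Of the 39 loci, 38 reached the filter of a mean of 1 kb covered; Acta2, smooth muscle actin, did not. The limma fit used log2(covered bp + 500), a Benjamini-Hochberg threshold of 0.05 was set over all 16049 loci, and all log2 changes refer to that scale, so that changes of short lengths are understated. The 2 of 38 called longer compare with 4.00% of all loci, and the 0 that fell with 2.87% (6.87% in either direction). With any single library left out Fhl2 was no longer called, at log2 changes of 0.90 to 1.03. For Gsn the log2 change was then 2.78 to 3.67, and no p is given because of the length filter. At an unadjusted limma p under 0.05 there were 16 of 38, and 4464 of the 16049 loci. Zyx, like Gsn, reached the filter only through its treated libraries, so neither adds support to a count of members. With no length filter Gsn still passed (limma adjusted p = 0.0350). The median log2 change was 0.24 over the 38 and 0.08 over all loci.

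With clone as a factor in the limma fit, 18 of the 38 loci rose and 6 fell, against 22.7% and 15.5% of all loci. That fit has 1 residual degree of freedom, the gap between the changes of clones a and b, and borrows variance over loci. The 18 include Gsn and Zyx, which reached the length filter only through their treated libraries. The direction was the same in both clones at 34 of 38 loci, longer at 23 and shorter at 11. Over all 16049 loci it was longer in both clones at 7851 and shorter in both at 5120. At Cap1, Cnn3, Actn4 and Rdx the clones went opposite ways. The treated and untreated libraries did not overlap at 25 loci, 19 longer after 4OHT (37.1% of all loci do so) and 6 shorter (21.7% of all loci). Gsn and Zyx are also among the 23 and the 19. Because of the length filter they add no support to the 18, the 23 or the 19.

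**Figure D1:**
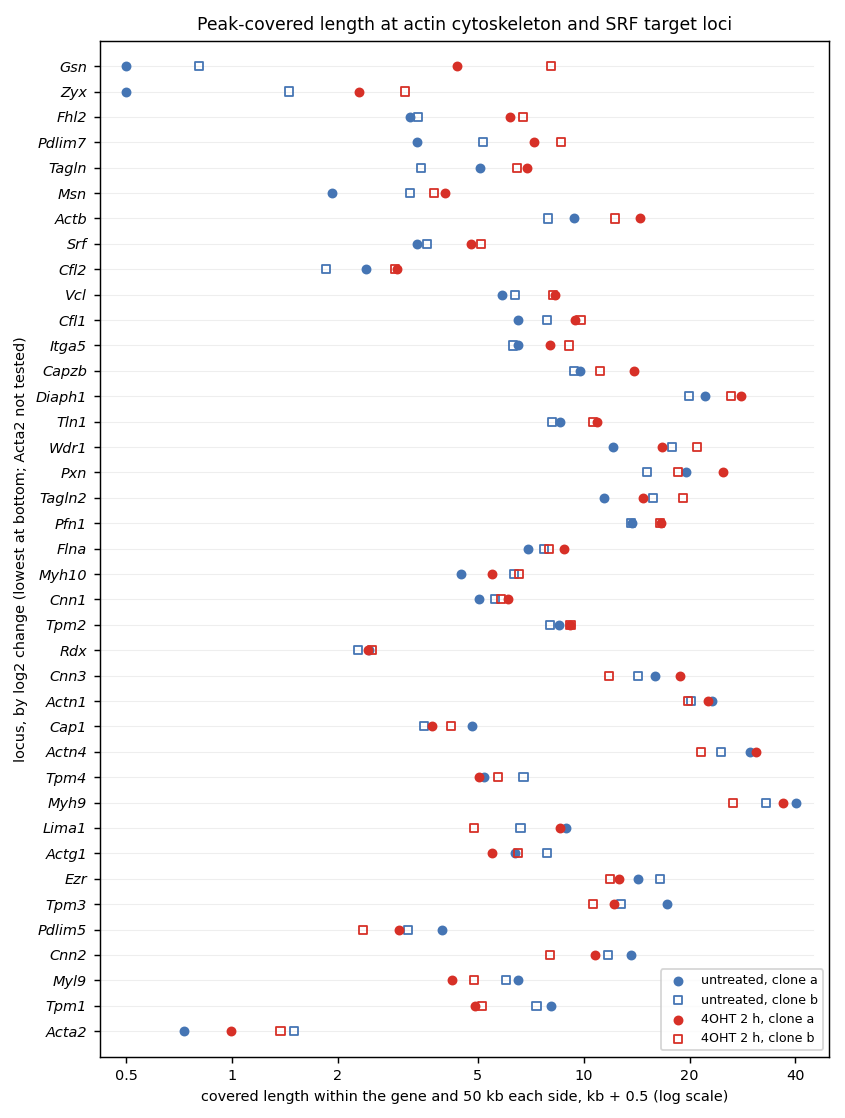
Length covered by H3K27ac peaks (kb + 0.5, log axis) at each of the 39 loci, in untreated (blue) and 4OHT-treated (red) cells of clone a (filled circles) and clone b (open squares), ordered by log2 change. Gsn and Zyx, at the top, go from 0 to 0.949 kb untreated to 1.80 to 7.55 kb treated, and at Tpm1 both treated libraries lie below both untreated ones.

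Srf (chromosome 17, 46546838 to 46558267) had 2.86 and 3.09 kb covered in clones a and b untreated and 4.29 and 4.59 kb treated. The groups did not overlap, and the log2 change was 0.51 ± 0.14 (SE; limma adjusted p = 0.0959, and 0.0182 with clone as a factor). The added length was not at the gene. Within 2 kb of the Srf start 1.49 and 1.65 kb were covered untreated and 1.49 and 1.70 kb treated (log2 change 0.02). A region of 578 bp at chr17:46498244-46498821 was gained, meaning called in both treated libraries and neither untreated one; it lies in Dnph1, 48.0 kb from Srf. Next to it a region called in all libraries went from 914 and 588 bp to 1360 and 1327 bp. With a window of 10 kb in place of 50 kb the Srf log2 change was -0.24.

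The actin genes differed from one another. Actb, cytoplasmic beta-actin (chromosome 5, 142903115 to 142907976), had 8.90 and 7.42 kb in clones a and b untreated and 14.0 and 11.8 kb treated, without overlap (log2 change 0.63 ± 0.15 SE; limma adjusted p = 0.0732, and 0.00134 with clone as a factor). Gained regions at the locus lay beyond the gene end at the higher coordinate. They were chr5:142920411-142921686, chr5:142923648-142924141 and chr5:142925092-142926390, 12.4, 15.7 and 17.1 kb from the gene, and held 2.88 kb of the mean increase of 4.71 kb. A further 2 regions were lost, called in both untreated libraries and neither treated one, 46.6 and 47.4 kb from Actb. Both lay nearest to Fscn1, which encodes the filament-bundling protein fascin. At Actg1, gamma-actin, covered length was 5.88 and 7.36 kb untreated and 4.99 and 6.01 kb treated, with overlapping groups (log2 change -0.25 ± 0.17; limma adjusted p = 0.406). Its start was covered alike, 2.98 and 3.21 kb untreated and 3.14 and 3.19 kb treated, at score percentiles of 97.9 to 99.2 in their lists. Acta2 had 0.231 and 0.998 kb untreated and 0.492 and 0.872 kb treated, with no peak within 2 kb of its start in any library.

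Among genes of filament turnover the largest difference was at Gsn (chromosome 2, 35256359 to 35307902). Untreated clones a and b had 0 and 0.304 kb covered, and treated ones 3.85 and 7.55 kb. The groups were far apart, although treated clone b had much more than clone a (log2 change 3.22 ± 0.40 SE). The size depends on the pseudocount, 4.77 at 100 bp and 1.80 at 2000 bp. Only the treated libraries carried Gsn over the length filter, so no p of the filtered fits is given here. Of the 9 regions at the locus 5 were gained and 0 were called in all libraries. A cluster of 3 gained regions, between 35265501 and 35268212, surrounded the internal start listed second for Gsn. The middle region covered that start and was called over 468 and 1201 bp. The start listed first and the third had no peak in any library. These were the only gained regions within 2 kb of a listed start among the 51 gained regions of all 39 loci. The other 2 lay 29.5 and 33.6 kb beyond the gene, nearest to Stom, which encodes the membrane protein stomatin. The longer of them, chr2:35341527-35344449, was called over 1802 and 2923 bp at the 69.1 and 86.0 score percentiles, and it was the longest and highest scoring gained region at any of the loci. The promoter of the internal Gsn start is shown because peaks appeared over it; it holds neither a CArG box nor CCGGAA, so none of its letters are capitals.

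Gsn internal promoter, chr2:35266494-35266793, plus strand: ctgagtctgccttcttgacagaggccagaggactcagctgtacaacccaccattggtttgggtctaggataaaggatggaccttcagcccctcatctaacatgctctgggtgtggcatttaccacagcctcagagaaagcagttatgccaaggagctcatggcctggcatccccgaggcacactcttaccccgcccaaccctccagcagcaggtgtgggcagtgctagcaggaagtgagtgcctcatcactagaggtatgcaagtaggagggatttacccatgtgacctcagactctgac

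The other turnover genes had smaller differences. Of the 8, 6 were longer with clone as a factor, beside 22.7% of all loci. Gsn is among the 6, but only its treated libraries carried it over the length filter, so it adds no support to this count. Cfl1, the gene for the filament-severing protein cofilin, had 5.99 and 7.38 kb untreated and 8.95 and 9.29 kb treated (log2 change 0.43; limma adjusted p = 0.138, and 0.0156 with clone). Its 3 gained regions held 2.28 of the 2.44 kb increase and lay in neighbours: Fosl1, an AP-1 gene induced by ERK, Efemp2 and Snx32. The Cfl1 start did not share the difference (log2 change -0.07), and with a window of 10 kb the log2 change was -0.01. Diaph1, a formin that elongates filaments, had 21.6 and 19.4 kb untreated and 27.5 and 25.7 kb treated (0.37; limma adjusted p = 0.109, and 0.00139 with clone). Its window holds 28 other protein-coding genes. Pfn1, profilin, which feeds actin monomers to growing ends, had 13.2 and 13.1 kb untreated and 16.1 and 16.0 kb treated (0.28; limma adjusted p = 0.164, and 0.0155 with clone). Both of its gained regions lay in the neighbour Eno3. Capzb, a subunit of the protein that caps filament ends, had 9.26 and 8.86 kb untreated and 13.4 and 10.6 kb treated (0.37; limma adjusted p = 0.183, and 0.0185 with clone). Of its 4 gained regions 3 were inside the gene. Wdr1, a cofactor of cofilin, had 11.6 and 17.3 kb untreated and 16.2 and 20.5 kb treated (0.35; limma adjusted p = 0.360, and 0.00925 with clone). Its groups overlapped because the clones differed, and each clone alone was longer after 4OHT, by 0.47 and 0.24 on the log2 scale. Cfl2, the muscle form of cofilin, did not overlap between groups (log2 change 0.47) and Cap1, which recycles actin monomers, did (-0.06); neither passed in either fit.

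**Figure D2:**
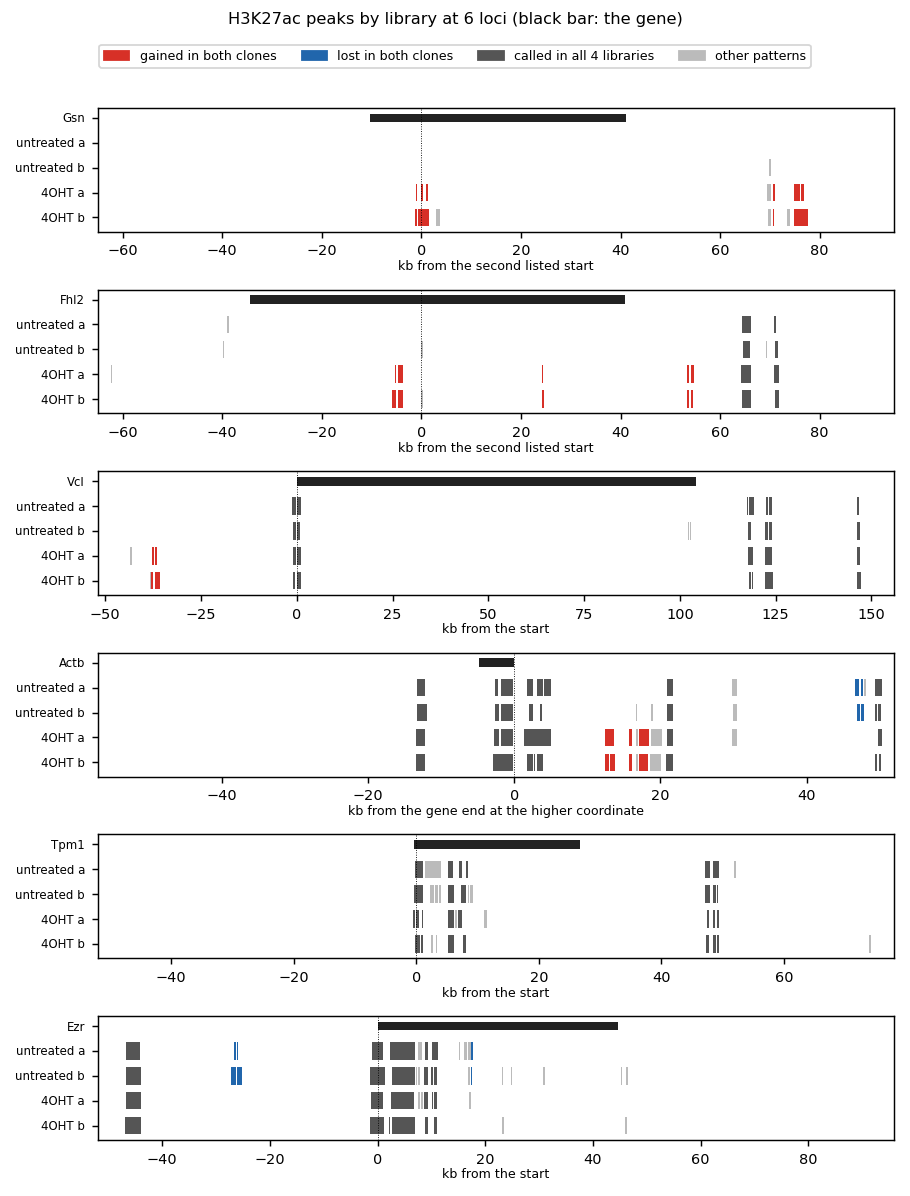
H3K27ac peaks of each library at Gsn, Fhl2, Vcl, Actb, Tpm1 and Ezr, with distance in kb from the point named under each panel, along the direction of transcription except at Actb. Red peaks belong to regions gained in both clones, blue ones to regions lost in both, dark grey ones to regions called in all 4 libraries and light grey ones to other patterns. Gained regions surround the internal start of Gsn, lie 3.6 and 5.0 kb upstream of the internal start of Fhl2 and 35.8 and 37.3 kb upstream of Vcl, and 0 lie at Tpm1 or Ezr.

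Adhesion and LIM-domain genes were longer at 7 of 8 loci with clone as a factor, where 22.7% of all loci were. Among the 7 are Fhl2, which also rose without it, and Zyx, whose place rests on the length filter. Fhl2 (chromosome 1, 43123071 to 43198343) had 2.70 and 2.88 kb in clones a and b untreated and 5.66 and 6.23 kb treated, without overlap (log2 change 0.97 ± 0.14 SE; limma adjusted p = 0.0303, and 0.00111 with clone as a factor). Its 5 gained regions held 2.96 of the 3.15 kb increase. Regions at chr1:43167539-43168718 and chr1:43168975-43169796 lie inside the gene, 3.6 and 5.0 kb upstream of the internal start that has a CArG box 31 bases before it. Another gained region lies 24.3 kb downstream of that start, and a pair lies in the neighbour AI597479. Among the top 20000 peaks of each list the log2 change was 0.14 (limma adjusted p = 0.711). In the full lists the gained regions stood at score percentiles of 3.91 to 60.1. The internal promoter is printed with its CArG box in capitals.

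Fhl2 internal promoter, chr1:43163912-43164211, minus strand: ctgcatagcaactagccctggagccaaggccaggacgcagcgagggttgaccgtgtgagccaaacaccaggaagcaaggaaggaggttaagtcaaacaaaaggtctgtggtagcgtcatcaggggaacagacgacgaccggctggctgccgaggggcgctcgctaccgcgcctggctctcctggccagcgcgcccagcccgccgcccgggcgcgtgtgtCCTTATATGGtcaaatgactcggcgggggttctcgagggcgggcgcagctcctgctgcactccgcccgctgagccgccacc

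Zyx, the gene for zyxin, a LIM protein of adhesions and stress fibres, had 0 and 0.949 kb untreated and 1.80 and 2.61 kb treated. At the start 0 and 0.708 kb were covered untreated and 1.24 and 1.28 kb treated, so much of the added length lay there. The log2 change of the locus was 1.65 ± 0.54 (SE), and no p is given for it because of the length filter. Pdlim7, a PDZ and LIM protein of stress fibres, had 2.85 and 4.68 kb untreated and 6.70 and 8.12 kb treated (0.92 ± 0.24; limma adjusted p = 0.0857, 0.00168 with clone and 0.0458 without untreated clone b). At this locus 0 regions were gained. A merged region that spans the Pdlim7 start was called in all 4 libraries. It went from 1784 and 2298 bp to 3140 and 4133 bp, and its score percentiles from 32.4 and 70.1 to 86.6 and 94.4. Untreated clone a had no peak within 500 bp of the start itself, and 0.255 kb covered within 2 kb. Vcl, vinculin, which ties integrin adhesions to filaments, had 5.34 and 5.86 kb untreated and 7.78 and 7.70 kb treated, without overlap (0.44 ± 0.13; limma adjusted p = 0.101, and 0.0153 with clone). Its gained regions, chr14:20891446-20892059 and chr14:20892257-20893606, lie 37.3 and 35.8 kb upstream, with Vcl as the nearest gene. With a window of 10 kb, which leaves them out, the log2 change was -0.19. The Vcl promoter itself was covered in all libraries.

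Pxn, the adhesion scaffold paxillin, held 5 gained regions, 4 of them inside the gene, and 1 lost. Its covered length was 19.0 and 14.6 kb untreated and 24.4 and 18.0 kb treated (log2 change 0.33; limma adjusted p = 0.352, and 0.00445 with clone). The groups overlapped, and both clones were longer, by 0.35 and 0.30. Tln1, talin, which activates integrins, had 8.05 and 7.63 kb untreated and 10.4 and 10.1 kb treated (0.36; limma adjusted p = 0.124, and 0.0163 with clone). Its window shares peaks with that of its neighbour Tpm2, so these are not separate results. Itga5, the alpha subunit of the fibronectin receptor, had 6.0 and 5.78 kb untreated and 7.51 and 8.59 kb treated (0.42; limma adjusted p = 0.121, and 0.0207 with clone). All 3 of its gained regions lay in the neighbours Copz1 and Zfp385a. Pdlim5, another PDZ and LIM protein, went the other way, with 3.44 and 2.67 kb untreated and 2.49 and 1.86 kb treated (-0.41; limma adjusted p = 0.274, and 0.0660 with clone). It held 2 lost regions and 1 gained, all inside the gene. At its starts more was covered after 4OHT, 1.54 and 1.19 kb against 1.86 and 1.62 kb. Away from them 1.90 and 1.48 kb were covered untreated and 0.625 and 0.245 kb treated, and only the untreated libraries reach the length filter there.

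Tropomyosins, calponins and transgelins, which line or decorate filaments, split in direction. Of 9 loci 4 had log2 changes above 0 and 5 below. With clone as a factor 2 rose and 3 fell, beside 22.7% and 15.5% of all loci. Tpm1 (chromosome 9, 67022590 to 67049672) had the lowest log2 change of the 38, with 7.56 and 6.84 kb untreated and 4.39 and 4.63 kb treated, without overlap (-0.62 ± 0.13 SE; limma adjusted p = 0.0571, and 0.00519 with clone). No region at Tpm1 was gained or lost in both clones. A stretch beginning 1.4 kb downstream of its start was covered over 2622 and 1426 bp untreated and 0 and 456 bp treated, and the region over the start went from 1433 and 1453 bp to 1084 and 1202 bp. Tpm3 had 16.7 and 12.3 kb untreated and 11.7 and 10.1 kb treated (-0.38; limma adjusted p = 0.242, and 0.0106 with clone). Cnn2, a calponin of non-muscle cells with a CArG box in its promoter, had 13.1 and 11.2 kb untreated and 10.3 and 7.52 kb treated (-0.44; limma adjusted p = 0.202, and 0.00881 with clone). Both of its lost regions lay beyond the gene, nearest to Abca7 and Polr2e. Tagln, a marker of smooth muscle, had 4.58 and 2.94 kb untreated and 6.40 and 5.95 kb treated (0.67; limma adjusted p = 0.124, and 0.00902 with clone). All 4 of its regions were nearest to other genes, Rnf214, Sidt2 and Pafah1b2. Tagln2 had 10.9 and 15.2 kb untreated and 14.2 and 18.7 kb treated (0.32; limma adjusted p = 0.382, and 0.00942 with clone), with gained regions in the neighbours Igsf9 and Cfap45. Tpm2, Tpm4, Cnn1 and Cnn3 had log2 changes of 0.15, -0.14, 0.17 and -0.02 and passed in neither fit.

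Of the 3 myosin loci 0 rose in either fit, and 2 fell with clone as a factor. In that fit 22.7% of all loci rose and 15.5% fell. Myl9, the regulatory light chain of contractile myosin, had 5.99 and 5.51 kb untreated and 3.73 and 4.37 kb treated, without overlap (log2 change -0.46 ± 0.15 SE; limma adjusted p = 0.121, and 0.0267 with clone). No peak lay within 2 kb of its start in any library. Myh9, a heavy chain of non-muscle myosin, had the longest cover of all 39 loci, 39.8 and 32.5 kb untreated and 36.5 and 26.1 kb treated. Its groups overlapped (-0.22; limma adjusted p = 0.511, and 0.0121 with clone), and without treated clone b the log2 change was 0.02. Myh10, the other heavy chain listed, had a log2 change of 0.17 (limma adjusted p = 0.651).

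Among crosslinkers 0 of 4 loci passed in either fit, where 6.87% of all loci did without the clone term and 38.2% with it. Actn4, an alpha-actinin that bundles filaments, had 29.3 and 24.1 kb untreated and 30.4 and 21.0 kb treated (log2 change -0.07 ± 0.21 SE; limma adjusted p = 0.855). It held the most lost regions of any locus, 5, all inside the gene between 17.7 and 30.8 kb downstream of the start, beside 3 gained. One of the gained regions lay 3.6 kb downstream of the start. Actn1, Flna (filamin) and Lima1, which stabilises filaments, had log2 changes of -0.03, 0.20 and -0.25.

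Membrane linkers of the ERM family, which tether filaments to the plasma membrane, differed among themselves. Ezr, ezrin, had 13.8 and 16.0 kb untreated and 12.1 and 11.4 kb treated, without overlap (log2 change -0.33 ± 0.13 SE; limma adjusted p = 0.172, and 0.0227 with clone). It held 3 lost and 0 gained regions. A pair of lost regions, chr17:6807999-6808894 and chr17:6809101-6810037, lies 25.2 and 26.3 kb upstream of its start and was called over more bases in clone b (896 and 937 bp) than in clone a (220 and 314 bp). Msn, moesin, had 1.42 and 2.70 kb untreated and 3.53 and 3.25 kb treated (0.65 ± 0.28; limma adjusted p = 0.203, and 0.0459 with clone). Most of that lay at its start, with 0.456 and 1.17 kb untreated and 1.71 and 2.07 kb treated within 2 kb. At Rdx, radixin, a single region over its starts was called in every library, over 1951 and 1778 bp untreated and 1932 and 2004 bp treated (0.06; limma adjusted p = 0.855).

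Counted over the windows of all 39 loci, 51 distinct regions were gained and 23 lost, of 545. That is 9.36% gained and 4.22% lost, beside 6.20% and 6.26% of the 82792 regions of the genome. Gained regions made up 68.9% of those that changed, against 49.7% in the genome. With a library left out this share was 49.6 to 74.0% at the loci and 37.9 to 62.5% in the genome. These counts are given with no test, since regions are not replicates. The nearest gene was a member of the list for 25 gained regions and another gene for 26, and for 16 and 7 of the lost ones. Among regions nearest to a member 8.62% were gained and 5.52% lost, so that gained ones made up 61% of those that changed. Only 19 gained regions lay inside a listed gene. Gained regions had a median length of 515 bp, while the median width of single peaks was 503 to 539 bp in the 4 lists. Their median score percentile was 37.7, taking the higher of the treated lists. For lost regions it was 43.0, taking the higher of the untreated lists.

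**Figure D3:**
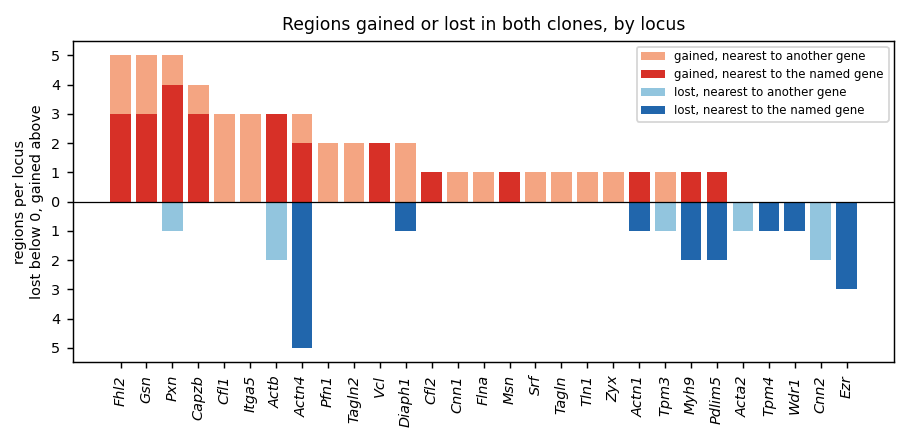
Number of regions gained (above 0) and lost (below 0) in both clones at each locus that has any, split by whether the nearest protein-coding gene is the named gene (dark) or another (light). Fhl2, Gsn and Pxn hold 5 gained regions each, while the 3 at Cfl1 and the 3 at Itga5 all lie nearest to other genes, and Actn4 holds 5 lost.

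The starts of the listed genes were marked in most cases and did not differ detectably. Of the 35 genes with a listed start, 27 (77.1%) had a peak within 2 kb in all 4 libraries, against 49.2% of 17492 genes. Acta2, Cnn1, Lima1 and Myl9 had none in any, though the only start listed for Lima1 is internal. The covered length within 2 kb was tested on log2(covered bp + 200) where its mean was at least 200 bp. In limma 0 of 29 members passed without the clone term (0.00% of 9585 starts called; 5 members and 1562 starts at an unadjusted p under 0.05) and 0 of 29 with it (0.939% called, 0.772% longer). The groups did not overlap at 11 starts longer after 4OHT (38.9% of all starts) and 3 shorter (9.90%). Gsn, with 0 kb at its starts in both untreated libraries, reached the filter at starts only through its treated ones. It is among the 5 and the 11 and adds no support to either count. The median log2 change at the starts was 0.07, and 0.13 over all starts. The 4 largest were at Gsn (3.21), Zyx (1.78), Pdlim7 (1.42) and Msn (1.14), all starts that were uncovered or thinly covered in untreated clone a. The other 25 lay between -0.52 and 0.52. The rest of the window, without the 2 kb around starts, was called longer at 2 of 30 loci (3.46% of 11895 loci are). These were Fhl2 (0.99; limma adjusted p = 0.0354) and Gsn (2.75), which again passed the length filter only through its treated libraries. With no length filter 0 were called longer. With the filter 0 fell (2.60% do; 6.05% in either direction). With clone as a factor 12 rose (24.1%) and 8 fell (19.7%; 43.8% in either direction). The 12 include Gsn, and the 8 include Pdlim5, which reached the length filter only through its untreated libraries. Neither adds support to these counts. Whether changes at starts and away from them differed was not tested.

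**Figure D4:**
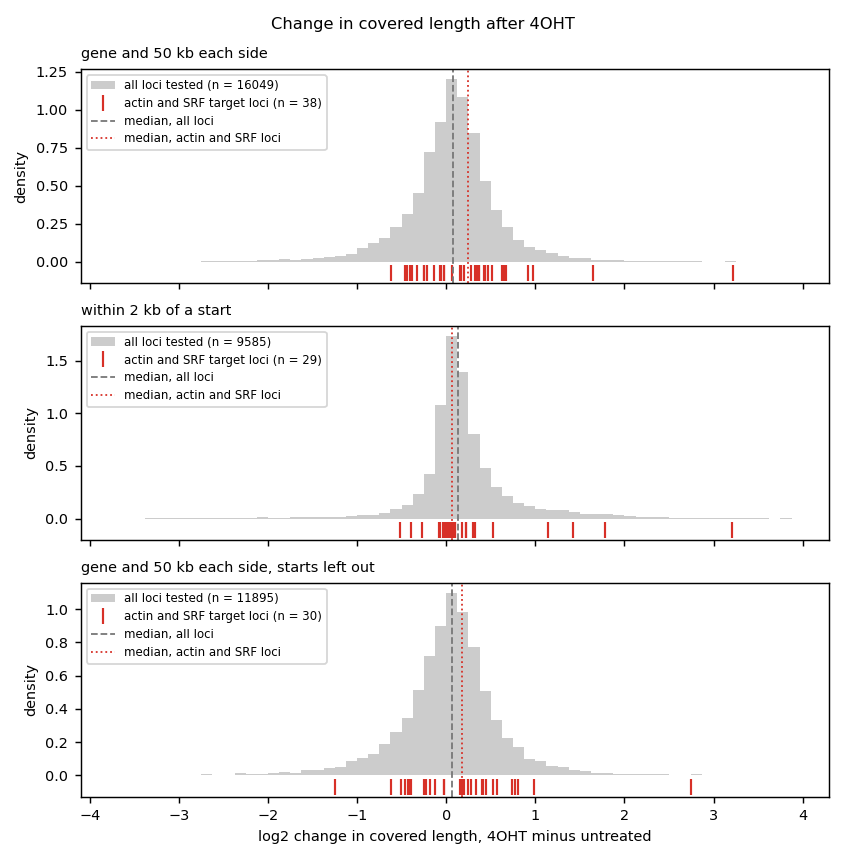
Log2 change in covered length after 4OHT for all loci tested (grey histograms) and for the actin and SRF target loci (red ticks), over the gene with 50 kb on either side, within 2 kb of starts, and over the window without those starts. Dashed and dotted lines mark the medians of all loci and of the listed loci, which are 0.08 and 0.24, 0.13 and 0.07, and 0.06 and 0.18 from top to bottom.

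Related pathway genes outside the list were counted by 3 further lists. In these 0 loci rose or fell without the clone term in limma. With it 6 of 26 genes of ARP2/3, WAVE and formin nucleation rose and 4 fell (median log2 change 0.07), 4 of 16 contractile and smooth muscle genes rose and 0 fell (0.13), and 7 of 19 focal adhesion and integrin genes rose and 4 fell (0.10). The calls with clone as a factor came to 63.2% of the 38 loci, 38.5%, 25.0% and 57.9% of these lists and 38.2% of all loci. Vasp stands in both the nucleation and the focal adhesion list and is counted as a rise in each. The lists were not compared with one another by a test.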

How the data were processed

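This work used 4 H3K27ac peak lists; input libraries (4) were not used here. The authors used Bowtie2, bedtools and MACS2 on mm10, per the submitters' processing notes, with settings not given in the sources used here. A deposited list belongs to 1 library and gives each peak a score on a scale that is not stated. This score was used only to rank peaks within its own list.
Peaks overlapping by 1 bp or more were merged into regions. Covered length was summed per window and library and compared with limma 3.58.1 in R 4.3.3 (trended prior variance, no clone term), over loci with a mean of at least 1000 bp (200 bp at starts). The fit without a clone term was tested on simulated lengths that had the same spread at every locus and no clone effect, unlike these data. Signs were recovered, but many changes of the smaller simulated size were not called. The fit with clone as a factor was not tested in this way. An exact permutation test of 2 against 2 libraries cannot go below a two-sided p of 0.333, so none is given. P-values without a clone term rest on the spread between 2 clones. Those with clone as a factor rest on the gap between the changes of the 2 clones. Both fits borrow variance over loci. The clone letters pair the treatments: the deviations of the clone a libraries from their group means had a correlation of 0.611 across loci. Clone as a factor (replicate block) was an alternative, beside score filters, windows, pseudocounts, filters, scaling, merging and leaving out each library. Values in every library are given for Srf, Actb and Actg1, for members called in either fit, for the 5 largest changes each way and for members with 2 or more gained or lost regions. Distances to a start use RefSeq starts; where a gene lists several, the nearest was taken. Members and lists were chosen with earlier results of these data known. A further pathway list is not reported here.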

Additional observations from a re-analysis of the deposited data

How the results depend on the processing

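With clone as a factor (the replicate block, which pairs the treatments by clone) 18 members rose and 6 fell (3639 and 2486 of all loci), and away from starts 12 rose and 8 fell; of the 27 members given in full, 22 passed only in that fit, and at starts it changed no call. Leaving out single libraries gave 0 to 3 members longer and, over all loci, 0 to 406 longer and 0 to 162 shorter; without untreated clone b Gsn, Zyx (both tested only because their treated libraries reach the length filter) and Pdlim7 passed, and without any other library 0 members did. Away from starts, 0 members were longer whichever library was left out. Fhl2 passed in none of these fits (log2 change 0.90 to 1.03) and Gsn in one (2.78 to 3.67), where the lone library of a group is assumed to vary like the others. In the upper 50% by score 0 members were longer (179 and 139 of all loci longer and shorter), among the top 20000 peaks 0 (0 and 0), and with a window of 10 kb 0 (393 and 278). Away from starts, both score settings and no length filter gave 0 longer, and a pseudocount of 100 bp gave 1.
Signs turned for Actg1 (0.19, window of 100 kb), Srf (-0.24), Cfl1 (-0.01) and Vcl (-0.19, each with a window of 10 kb), Myh9 (0.02 without treated clone b, range -0.46 to 0.02 over libraries left out) and Actn4 (0.06, window of 100 kb; 0.07 without clone a of the untreated group and 0.19 without clone b of the treated, range -0.34 to 0.19). Narrow windows leave out the distal regions named above; other causes were not tested.
Gained and lost regions numbered 27 and 10 with peaks merged within 1000 bp, 21 and 7 in the upper 50%, 16 and 4 among the top 20000, and 62 to 97 and 33 to 63 with a library left out. Counting only regions nearest to a member gave 25 gained and 16 lost, with 61% of the changed regions gained. Unknown depth limits every missing peak.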
